A study of Mus musculus with 32 samples.

Results

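The knockdown of Zbtb9 in 3T3-L1 cells at day 11 of adipogenic differentiation is described here. The series profiled RNA from the mouse preadipocyte line 3T3-L1 at days 0, 3, 7 and 11, and 8 of its 32 libraries belong to day 11. They were chosen by their labels alone: 2 libraries carried shRNA #1 against Zbtb9 (shRNA1 below), 2 carried shRNA #2 (shRNA2) and 4 carried shCtrl, the scramble control. All 8 shared a WT genotype and the same schedule. Cells held at confluence for 2 days received insulin (167 nM), dexamethasone (1 µM) and the phosphodiesterase inhibitor IBMX (0.5 mM) at day 0, insulin alone from day 3, and medium without any of them from day 7 until harvest at day 11. The sources used here call the replicates biological and do not say whether they came from separate transductions, so the p-values measure only the spread between these cultures of 1 cell line.

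Zbtb9 encodes a nuclear protein with a BTB domain, through which such proteins pair with partners, and zinc fingers, which in this family usually bind DNA. When 3T3-L1 cells differentiate, hormone-induced early factors switch on Pparg and Cebpa, which in turn switch on the genes of lipid storage, lipid release, insulin-responsive glucose uptake and adipokine secretion. Late cultures are a mixture of lipid-filled cells and fibroblast-like cells that did not convert.

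The targeted gene came first. Zbtb9 (ENSMUSG00000079605, chromosome 17, 26973167 to 27008376, plus strand, GRCm38) had few reads, with 17.9, 12.1, 20 and 12.1 normalized reads in control replicates 1 to 4, 8.17 and 19.3 in the shRNA1 replicates and 2.13 and 4.25 in the shRNA2 replicates. Normalized reads are read counts rebuilt from the deposited values and scaled to a common library size. Both shRNA2 libraries and 1 shRNA1 library lay below all controls, while the library labelled shRNA1 replicate 2 lay among them. The mean was 8.46 ± 7.65 in knockdown and 15.5 ± 4.02 in control (SD, n = 4), or 54.5% of control, with an exact two-sided permutation p of 0.143 (the smallest that 4 against 4 allows is 0.0286). On the deposited log2 scale the difference was -0.28 (SE 0.15, limma adjusted p 0.173) for both shRNAs, -0.08 (adjusted p 0.734) for shRNA1 and -0.49 (adjusted p 0.0228) for shRNA2. Exons of Ggnbp1, on the same strand, covered 84.4% of the exonic length of Zbtb9 in the GENCODE M21 annotation, and Ggnbp1 had 31.8 ± 12.9 normalized reads in control and 29.5 ± 11.4 in knockdown. The part of this overlap in the counts was not tested, so the level of Zbtb9 and the size of its fall are uncertain. Because the label of 1 shRNA1 library was not borne out by Zbtb9, counts for each shRNA are given beside the pooled ones for most lists, and values for each shRNA where the libraries or the test set them apart. All shRNA1 values rest on the labels.

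Depth was 26486077 to 31073769 reads in genes in control and 22839400 to 25511796 in knockdown, ranges that did not overlap. The first principal component, with 63.2% of the variance, separated knockdown from control, and the second, with 19.2%, separated the shRNAs. The library labelled shRNA1 replicate 2 stood at 29.8 on the first and 17.6 on the second, and shRNA1 replicate 1 at 26.2 and 8.9. The shRNA2 replicates stood at 11.8 and 16.9 on the first and at -20.4 and -17.3 on the second. Mitochondrially encoded genes took 0.702% to 0.754% of reads in control and 0.710% to 1.07% in knockdown, and the 10 largest genes took 5.72% to 6.05% in control and 6.06% to 6.20% in knockdown, ranges that did not overlap. The part of depth and RNA quality in the results was not tested.

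The label of mature adipocytes was checked against 10 adipocyte markers. In control cultures Adipoq went from 0.207 ± 0.414 normalized reads at day 0 to 2520 ± 323 at day 11, Plin1 from 0.210 ± 0.421 to 1326 ± 106, and Cfd from 0 in every library to 3222 ± 521 (SD, n = 4). Lep, the leptin gene, stayed near 0 (0.203 ± 0.407 in control and 1.69 ± 2.71 in knockdown at day 11), so a defining hormone of mature fat tissue was absent or nearly so in all 8 libraries. Markers went both ways after day 7. In control the means of Adipoq and Cfd were higher at day 11, and those of Pparg, Cebpa, Fabp4, Plin1, Cidec, Lipe and Slc2a4 were lower. Adipoq was at 1709 ± 166 at day 7 and 2520 ± 323 at day 11 in control, and at 6932 ± 1669 and 11060 ± 2118 in knockdown. Cfd was at 1538 ± 169 and 3222 ± 521 in control, and at 6634 ± 539 and 12701 ± 2996 in knockdown. Other markers were lower at day 11 in control: Cidec was at 2538 ± 189 at day 7 and 533 ± 73.4 at day 11, Fabp4 at 15506 ± 891 and 4687 ± 637, and Slc2a4 at 312 ± 17.8 and 111 ± 20.4. Knockdown cultures showed the same order for these 3 at a higher level, with Cidec at 15568 ± 3597 and 3681 ± 540, Fabp4 at 51245 ± 9686 and 15201 ± 1035, and Slc2a4 at 2499 ± 222 and 829 ± 112. In such bulk RNA, a larger share of adipocytes and more RNA per adipocyte cannot be told apart.

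Knockdown and control differed widely. Of 13281 genes tested, limma called 4382 (33.0%) at an adjusted p under 0.05, with 2227 higher (16.8%) and 2155 lower (16.2%) in knockdown, and the median difference over all genes was -0.01. The split moved with the scaling: median centring gave 2286 higher and 2083 lower, rescaling to equal totals 1978 and 2478, and voom on rebuilt reads 1974 and 2515. In 4562 genes (34.3%) the 4 knockdown libraries did not overlap the 4 controls, with 2259 genes above and 2303 (17.3%) below. Large changes were mostly rises: 232 genes were called higher by at least 1 on the log2 scale (1.75%) and 83 lower (0.625%). The deposited log2 values are shrunk for low genes, so differences of low genes are understated. By the pooled fit, in which the spread between the shRNAs is part of the error, a gene with the shRNAs on opposite sides can hardly be called: all 4382 called genes had both shRNA means on the same side of the mean of the 4 shared controls, a count that follows largely from the call. Of the genes tested, 3163 genes were called by each shRNA alone on the same side (1641 higher, 1522 lower) and 92 on opposite sides. Against the same controls, shRNA1 alone gave 5789 calls (43.6%, with 21.4% higher and 22.2% lower) and shRNA2 alone 4897 (36.9%, with 17.4% higher and 19.4% lower). Without the library labelled shRNA1 replicate 2 the pooled count was 4271 of 13241. The plot of list medians gives 28 groups of genes, each list chosen for this tissue with earlier results of these data known.

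**Figure D1:**
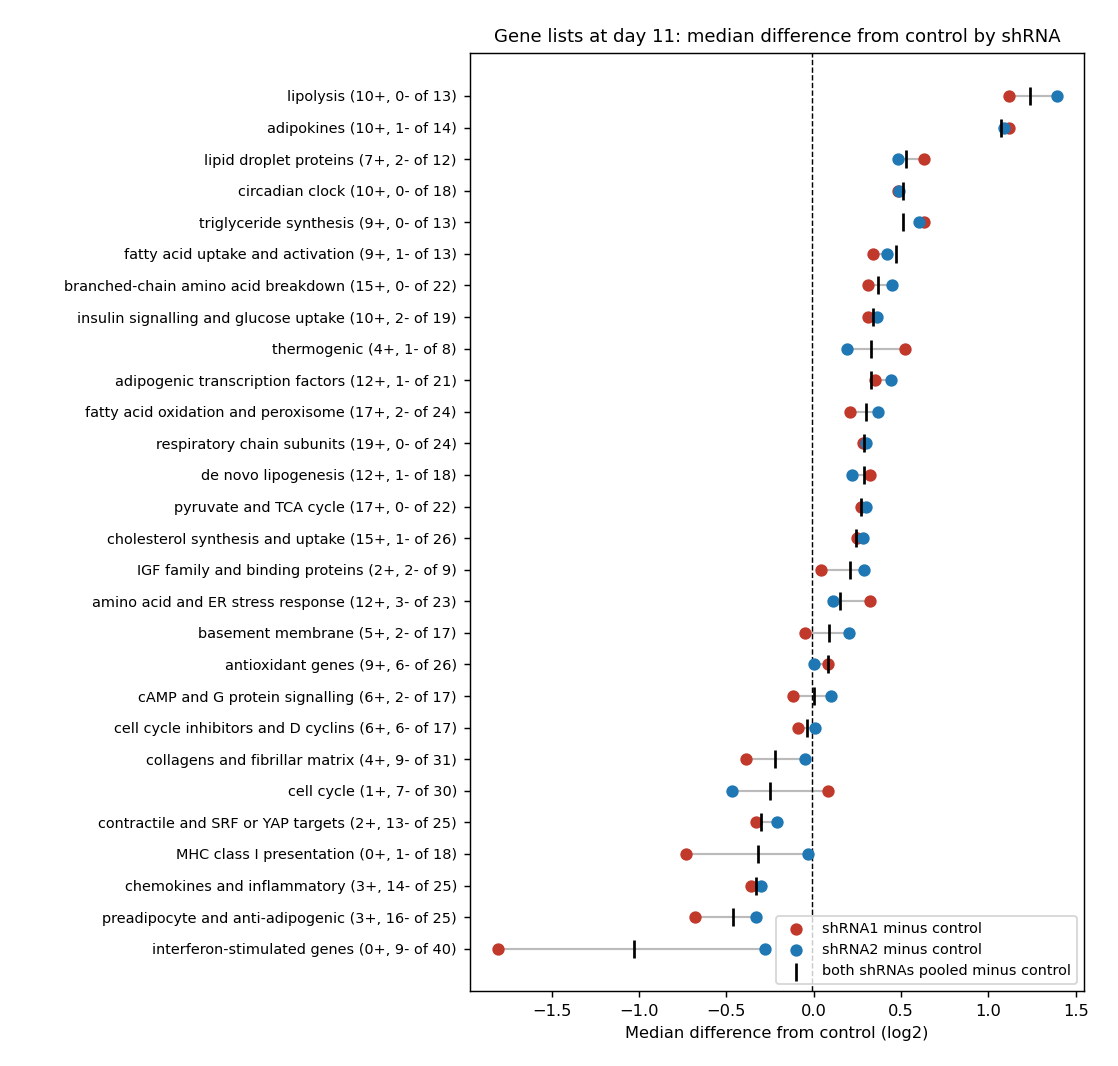
Median log2 difference from control at day 11 for each gene list, by shRNA (red, shRNA1; blue, shRNA2) and pooled (black bar); labels give the members called higher (+) and lower (-) of those tested, and the dashed line is the median of all genes, -0.01. Lipolysis and adipokines sat highest, with pooled medians of 1.24 and 1.07, and interferon-stimulated genes lowest, at -1.03, where the shRNA1 median was -1.81 and the shRNA2 median -0.28.

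Transcription factors of the adipocyte program were higher in knockdown. Of 21 tested, 12 were called higher and 1 lower, against 16.8% and 16.2% of all genes, with a median of 0.33, and the shRNAs alone gave 13 higher and 2 lower (shRNA1) and 15 and none (shRNA2). Pparg, the nuclear receptor at the centre of adipogenesis, had 2453, 2582, 2437 and 2788 normalized reads in the controls, 5564 and 5345 with shRNA1 and 6229 and 6408 with shRNA2. Every knockdown library was above every control, by 1.15 on the log2 scale (SE 0.07, adjusted p 5.84e-07). The gene lies at chr6:115360951-115490399 on the plus strand of GRCm38. Cebpa, its partner in adipocyte gene activation, was at 882, 777, 808 and 786 in control and 3016, 2108, 2845 and 2674 in knockdown (shRNA1, then shRNA2), again with no overlap (1.63, SE 0.10, adjusted p 7.69e-07). The largest rise in the list was that of Klf15, a glucocorticoid-induced factor that acts with Cebpa, at 159, 147, 163 and 135 against 910, 763, 537 and 645 (2.04, SE 0.14, adjusted p 1.41e-06). Early factors moved less: Cebpb rose by 0.39 (adjusted p 0.00149), and Cebpd was at 1577 in control and 1759 in knockdown (0.14, adjusted p 0.236), although it was called without the library labelled shRNA1 replicate 2 (0.23, adjusted p 0.0165). Srebf1, which drives lipogenic genes, rose by 0.47 (adjusted p 0.000122). Gata2, a factor that holds cells in the preadipocyte state, was the 1 factor called lower (-0.47, adjusted p 0.0185), a call that ended without control replicate 1 (adjusted p 0.063) or shRNA1 replicate 1 (adjusted p 0.0529), and its libraries overlapped.

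Genes for proteins that build and guard the lipid droplet were more often higher than lower in knockdown, with 7 of 12 tested members called higher, 2 lower and a median of 0.53 (shRNA1 alone 7 and 2, shRNA2 alone 9 and 1). Cidec, which fuses droplets into large ones, had 635, 462, 522 and 512 normalized reads in control, 4471 and 3497 with shRNA1 and 3509 and 3249 with shRNA2. Its 4 knockdown libraries stood 6.91-fold above the controls in mean reads, with a log2 difference of 2.69 (SE 0.11, adjusted p 1.55e-07); the gene lies at chr6:113424634-113435760, minus strand. Plin1, the droplet coat protein that gates lipolysis, was at 1425, 1199, 1400 and 1280 in control and 6314, 5353, 5511 and 5489 in knockdown (2.02, SE 0.07, adjusted p 2.16e-08). G0s2, an inhibitor of the first lipase of the droplet, rose from 148, 201, 169 and 167 to 1073, 1042, 896 and 1053 (2.40, SE 0.09, adjusted p 3.78e-08), and Hilpda, another inhibitor of that lipase, from 586, 807, 697 and 787 to 3593, 4881, 2654 and 3133 (2.18, SE 0.18, adjusted p 4.57e-05). Neither gene showed any overlap between the groups. Genes of other coat proteins went the other way or did not pass: Plin2 fell by 0.26 (adjusted p 0.0115), Plin3 by 0.24 (adjusted p 0.0195), and Plin4 was at 14390 in control and 15949 in knockdown (0.13, adjusted p 0.405). The Plin3 call ended without control replicate 1 (adjusted p 0.0651) or shRNA1 replicate 1 (adjusted p 0.0509).

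Lipolysis had the highest median of the lists, 1.24, with 10 of 13 tested members called higher and none lower, 10 and none with shRNA1 alone and 12 and none with shRNA2 alone. The rises took in the receptors on both sides of the pathway. Adrb3, the adipocyte receptor for noradrenaline, which starts lipolysis, was at 71.6, 32.7, 35.2 and 52.9 normalized reads in control and at 608, 359, 356 and 414 in knockdown (2.66, SE 0.21, adjusted p 6.81e-06). Hcar2, the niacin and ketone body receptor that restrains it, was at 36.6, 27.1, 41.8 and 35.3 against 711, 575, 321 and 389 (3.16, SE 0.20, adjusted p 1.79e-06), and shRNA2 gave a smaller rise than shRNA1 (by -0.76, adjusted p 0.00367). Hcar1, the lactate receptor with the same restraining role, rose by 2.33 (adjusted p 7.42e-05). Among the enzymes, hormone-sensitive lipase Lipe rose from 2045, 1902, 2013 and 1989 to 7505, 6483, 7549 and 7766 (1.82, SE 0.06, adjusted p 2.16e-08), and Pnpla2, which removes the first fatty acid from a triglyceride, from 2611, 2386, 2550 and 2223 to 6298, 4719, 7012 and 5916 (1.24, SE 0.10, adjusted p 1.32e-05). In both, the lowest knockdown library was above the highest control. Mgll, which removes the last fatty acid, was higher by 0.64 with overlapping libraries (adjusted p 0.0218, up to 0.0717 when 1 library was left out, with the call ended by leaving out control replicate 3 or 4, shRNA1 replicate 1 or shRNA2 replicate 2).

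**Figure D2:**
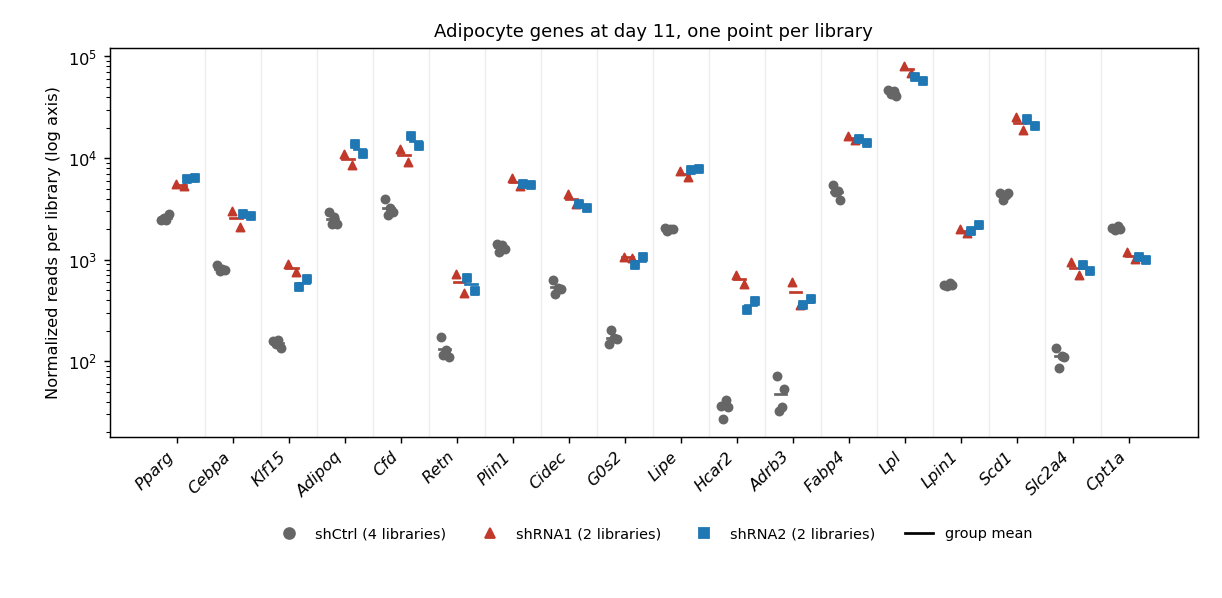
Normalized reads (log axis) of 18 adipocyte genes in the 8 day 11 libraries: grey circles, 4 controls; red triangles, 2 shRNA1; blue squares, 2 shRNA2; short lines, group means. Each knockdown library lay above every control for the first 17 genes, and below every control for Cpt1a.

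The supply side of the triglyceride store was raised as well. In fatty acid uptake and activation, 9 of 13 tested genes were called higher and 1 lower (median 0.47), against 9 and 2 with shRNA1 alone and 10 and none with shRNA2 alone. Fabp4, the abundant fatty acid carrier of adipocytes, was at 5420, 4663, 4796 and 3869 in control and 16460, 15026, 15371 and 13948 in knockdown (1.65, SE 0.09, adjusted p 4.22e-07). Lpl, which frees fatty acids from lipoproteins, was at 47200, 42296, 45328 and 40531 against 81525, 68634, 62397 and 57621 (0.60, SE 0.10, adjusted p 0.000851). The groups did not overlap in either gene, and the Lpl rise was smaller with shRNA2 than with shRNA1 (by -0.31, adjusted p 0.0224). Cd36, a membrane fatty acid transporter, was split: -0.02 with shRNA1 and 0.96 with shRNA2, a difference between the shRNAs with an adjusted p of 3.28e-06. In triglyceride synthesis 9 of 13 were called higher and none lower (median 0.51), with 11 higher by shRNA1 alone and 9 by shRNA2 alone. Lpin1, a phosphatidic acid phosphatase, rose from 561, 548, 584 and 567 to 2007, 1841, 1913 and 2200 (1.73, SE 0.06, adjusted p 2.56e-08), and the last enzymes of the route, Dgat2 and Dgat1, rose by 1.4 and 0.93 (adjusted p 2.2e-06 and 2.63e-06). Gpd1, which makes the glycerol backbone, varied more, at 1079, 682, 875 and 573 in control, 2279 and 1574 with shRNA1 and 4091 and 3862 with shRNA2 (1.74, SE 0.35, adjusted p 0.00889).

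De novo lipogenesis held 12 called higher and 1 lower of 18 tested (median 0.29; shRNA1 alone 13 and 1, shRNA2 alone 11 and 3), and Scd1 had the largest rise in the list. This stearoyl-CoA desaturase had 4577, 3904, 4336 and 4533 normalized reads in control and 25387, 18855, 24159 and 20508 in knockdown, 5.12-fold more with no overlap (2.28, SE 0.09, adjusted p 4.71e-08). Its relatives Scd2 and Scd3 were higher by 0.91 (adjusted p 0.00055) and 2.59 (adjusted p 2.9e-05), Scd3 at 3.82 normalized reads in control and 125 in knockdown. The steps before it differed little: Acly, which makes cytosolic acetyl-CoA, was at 4421 in control and 4330 in knockdown (-0.04, adjusted p 0.737), and the fatty acid synthase Fasn was higher by 0.38 (adjusted p 0.0198), a call that ended without control replicate 2 (adjusted p 0.0555) or 3 (adjusted p 0.0506). Elovl6, which lengthens palmitate, fell by 0.47 (adjusted p 0.00672). Over the 5 lipid lists together, 47 of 69 tested genes were called higher and 4 lower. Both shRNAs lay on the same side of their shared controls in 60 of the 69, where 73.1% of all genes tested did so.

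Glucose transporters rose in knockdown. In insulin signalling and glucose uptake 10 of 19 genes were called higher and 2 lower (median 0.34; shRNA1 alone 10 and 5, shRNA2 alone 11 and 2). Slc2a4, the insulin-responsive transporter GLUT4, was at 136, 86.0, 113 and 111 normalized reads in control, 954 and 702 with shRNA1 and 885 and 777 with shRNA2. That was 7.45-fold more in mean reads and no library overlapped (2.70, SE 0.13, adjusted p 1.55e-07; chr11:69942539-69948188, minus strand). The basal transporter Slc2a1 rose too, from 10681, 14520, 12307 and 14962 to 38276, 48595, 25916 and 30822 (1.38, SE 0.19, adjusted p 0.000792), less with shRNA2 than with shRNA1 (by -0.59, adjusted p 0.0453). Trarg1, a protein of GLUT4 vesicles, rose by 1.66 (adjusted p 9.5e-07). Receptor and adaptor genes changed less: the insulin receptor Insr by 0.44 (adjusted p 0.000948) and Irs2 by 0.34 (adjusted p 0.0087), while Irs1 was at 2302 in control and 1967 in knockdown (-0.26, adjusted p 0.344). Akt1, a kinase downstream of the receptor, was called lower (-0.23, adjusted p 0.0133), a call that ended without control replicate 1 (adjusted p 0.0508).

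Secreted factors of fat followed the same direction, with 10 of 14 tested adipokines called higher, 1 lower and a median of 1.07 (shRNA1 alone 11 and 3, shRNA2 alone 12 and 1). Adipoq, the adiponectin gene, was at 2927, 2266, 2632 and 2256 in control and 10982, 8521, 13707 and 11029 in knockdown (2.06, SE 0.14, adjusted p 8.77e-06). Cfd, adipsin, was at 3957, 2781, 3214 and 2937 against 12160, 9078, 16337 and 13231 (1.90, SE 0.18, adjusted p 0.000106). Retn, resistin, was at 174, 116, 129 and 111 against 722, 472, 654 and 487 (1.96, SE 0.16, adjusted p 7.46e-06). In none of the 3 did a knockdown library reach down to a control. On the shrunken log2 scale the largest rise of the genes named by rank was that of Ghrh, growth hormone-releasing hormone, at 25.2, 54.2, 31.4 and 69.7 in control, 708 and 963 with shRNA1 and 678 and 828 with shRNA2 (3.76, SE 0.23, adjusted p 3.27e-06; chr2:157329497-157347506, minus strand). In mean normalized reads the rise of Ghrh was 17.6-fold, below the 32.8-fold of the low gene Scd3. Lcn2, lipocalin 2, was the 1 adipokine that fell (by 0.63, adjusted p 4.53e-05).

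Outside these lists, the largest rises by rank included Peg10, an imprinted retrotransposon-derived gene, at 3185, 3742, 3732 and 4385 normalized reads in control and 22646, 18737, 18078 and 23397 in knockdown (2.39, SE 0.11, adjusted p 1.91e-07). Selenbp1, a selenium-binding methanethiol oxidase of fat cells, was at 81.3, 80.4, 61.8 and 61.3 against 634, 556, 832 and 835 (2.97, SE 0.14, adjusted p 1.55e-07). It shares 46.3% of its 50-base words with Selenbp2, so its reads may be split or shared between the copies. Adgrf5, an adhesion receptor, rose by 2.88 (adjusted p 4.42e-07), Lamb3, a laminin chain, by 2.67 (adjusted p 0.00019), and Mrap, a partner of the melanocortin receptors, by 2.39 (adjusted p 3.93e-06). For Lamb3 the shRNAs differed in size, with 505 normalized reads with shRNA1, 202 with shRNA2 and 33.1 in control (difference between shRNAs -1.15, adjusted p 0.000192).

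Mitochondrial genes rose in number but by small amounts. Over the respiratory chain, fatty acid oxidation, pyruvate and TCA cycle, and branched-chain amino acid lists, 68 of 92 tested genes were called higher and 2 lower, with a median of 0.29, and 67 and 69 were called higher with shRNA1 and shRNA2 alone. Respiratory chain subunits made up 19 of those rises, of 24 tested, with differences from 0.05 to 0.63 over the list. Cycs, cytochrome c, was at 1413, 1242, 1358 and 1200 in control and 1936, 1949, 1757 and 1811 in knockdown, without overlap (0.50, SE 0.06, adjusted p 0.00013), with the caution that it shares 25.3% of its 50-base words with Gm10053. Fatty acid oxidation held 17 higher and 2 lower of 24. Acadm, the medium-chain dehydrogenase, rose from 1797, 1847, 1850 and 1814 to 3651, 3427, 3430 and 3434 (0.90, SE 0.05, adjusted p 1.91e-07), and Cpt2, which rebuilds acyl-CoA inside the mitochondrion, rose by 0.78 (adjusted p 1e-06). The gatekeeper of the same pathway fell: Cpt1a, which lets fatty acids in, was at 2040, 1942, 2166 and 1990 in control and 1183, 1008, 1057 and 1003 in knockdown, 1.91-fold lower with every knockdown library below every control (-0.90, SE 0.06, adjusted p 1.79e-06). The carrier Slc25a20, which works beside it, was the other gene called lower (-0.24, adjusted p 0.0253), although leaving out control replicate 1, 3 or 4 ended that call (adjusted p up to 0.0839).

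Pyruvate and TCA cycle genes were called higher in 17 of 22 cases and lower in none (median 0.27). Pcx, pyruvate carboxylase, which supplies oxaloacetate for fat synthesis and glycerol, was at 8304, 7596, 7216 and 7527 against 17060, 13412, 16001 and 15601 (0.98, SE 0.07, adjusted p 3.18e-06). Breakdown of branched-chain amino acids, a carbon source of adipocyte lipid, held 15 of 22 called higher and none lower (median 0.37). Its first enzyme Bcat2 was at 1415, 1375, 1345 and 1228 against 2384, 1940, 2370 and 2212 (0.70, SE 0.07, adjusted p 2.69e-05), and Dbt, a subunit of the committing dehydrogenase, rose by 1.41 (adjusted p 2.57e-05). No library of Pcx or Bcat2 overlapped between the groups. Thermogenic genes were few, with 8 of 20 tested, 4 called higher and 1 lower (Tmem26, -0.52, adjusted p 0.0285, a call ended without control replicate 2, 3 or 4 or the library labelled shRNA1 replicate 2, adjusted p up to 0.0857). Among them Ppargc1b, a coactivator of mitochondrial genes, rose by 1.65 (adjusted p 2.43e-06), while its relative Ppargc1a was at -1.58 with shRNA1 and 0.02 with shRNA2, a difference between the shRNAs with an adjusted p of 0.000929.

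Cholesterol synthesis and uptake genes were called higher in 15 of 26 cases and lower in 1 (median 0.24; shRNA1 alone 13 and 3, shRNA2 alone 13 and none). Rises included Abcg1, a sterol exporter (1.09, adjusted p 1.9e-05) and Insig1, which holds back sterol synthesis (0.97, adjusted p 7.47e-05). Of 18 circadian clock genes 10 were called higher and none lower (median 0.51; shRNA1 alone 14 and 1, shRNA2 alone 10 and 1), among them some of the transcriptional repressors of the loop. Bhlhe41 rose by 1.84 (SE 0.09, adjusted p 1.95e-07), Per1 by 1.11 (adjusted p 5.24e-07) and Nr1d1, the REV-ERB alpha receptor that represses Arntl, from 1843, 1622, 1805 and 1870 to 3707, 3339, 3013 and 3039 (0.84, adjusted p 7.46e-06). The activators Arntl (0.20, adjusted p 0.0581) and Clock (0.10, adjusted p 0.319) did not pass in the pooled fit, and Arntl was called without shRNA2 replicate 1 (0.27, adjusted p 0.00815). Stress genes of the amino acid and ER response held 12 higher and 3 lower of 23, 16 and 2 with shRNA1 alone and 11 and 8 with shRNA2 alone, and 14 were lower with shRNA2 than with shRNA1, where 10.4% of all genes were. Among them were Xbp1, a factor of the secretory pathway, higher by 1.10 (adjusted p 3.3e-07) and the cystine carrier Slc7a11 lower by 1.25 (adjusted p 0.0064).

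The remaining lists were mixed, and of all genes 16.8% were called higher and 16.2% lower. Antioxidant genes held 9 higher and 6 lower of 26 (median 0.08), with the dismutase Sod1 and the catalase Cat higher by 0.40 and 0.39 (adjusted p 7.94e-05 and 0.000447) and the thioredoxin reductase Txnrd1 lower by 0.40 (adjusted p 0.0032). The count of 6 lower was 3, 2 and 3 without control replicates 1, 2 and 3. Genes of cAMP and G protein signalling held 6 higher and 2 lower of 17 (median -0.00), the lower count being no larger than the background. Among them Rgs2, a brake on G proteins, was higher by 1.10 (adjusted p 7.24e-05) and Rapgef3, a cAMP sensor, lower by 0.98 (adjusted p 0.0136). In the IGF family 2 of 9 were called higher and 2 lower, near the shares of all genes (16.8% and 16.2%): Igfbp4, an IGF binding protein, rose by 1.00 (adjusted p 3.6e-06), Igf2, a fetal growth factor whose exons overlap Gm49394 on the same strand over 62.8% of their length, rose by 1.36 (adjusted p 0.00497), Igfbp3 fell by 0.24 (adjusted p 0.0137), and Igf2r was lower by 0.20 (adjusted p 0.0266), a call that ended without any 1 of the 4 controls (adjusted p up to 0.0785).

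Genes of the preadipocyte state were mostly lower or not called. Among 25 tested preadipocyte and anti-adipogenic genes 16 were called lower and 3 higher, with a median of -0.46, and shRNA1 alone called 18 lower and 3 higher and shRNA2 alone 12 and 4. Of those called lower, Bmp4 passed the filter on low values only through the control libraries. Ahr, the dioxin receptor, which restrains adipogenesis, fell by 1.21 (SE 0.07, adjusted p 5.84e-07), and Grem1, a BMP antagonist, by 0.98 (SE 0.07, adjusted p 1.52e-06). Pdgfra, a receptor that marks preadipocytes, fell by 0.97 (adjusted p 0.00722), with 14952 ± 896 normalized reads in control and 7760 ± 2398 in knockdown (SD, n = 4) and a deeper fall with shRNA1 than with shRNA2 (difference 0.75, adjusted p 8.72e-06). Dlk1, the secreted inhibitor of adipogenesis, stayed abundant at 97368, 105077, 90539 and 107235 in control and 81093, 66348, 83527 and 87356 in knockdown (-0.33, adjusted p 0.0198). No Dlk1 library overlapped, yet its call ended without control replicate 2 (adjusted p 0.06) or 4 (adjusted p 0.0624).

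Contractile genes and targets of SRF or YAP were called lower in 13 of 25 cases and higher in 2 (median -0.30; shRNA1 alone 15 and 5, shRNA2 alone 12 and 1). The receptor kinase Axl fell by 1.03 (SE 0.07, adjusted p 1.02e-06) and Thbs1, thrombospondin, by 0.84 (adjusted p 4.52e-06), while Ccn1, another YAP target, rose by 1.16 (adjusted p 7.35e-07). Acta2, smooth muscle actin, was at 5997, 5121, 5774 and 4485 in control, 2712 and 2172 with shRNA1 and 4386 and 3373 with shRNA2 (-0.77, adjusted p 0.0237). Its groups did not overlap, but the call ended without control replicate 1 or 3 or shRNA1 replicate 1 (adjusted p up to 0.0614). Fibrillar matrix genes were mixed, with 9 lower and 4 higher of 31 and a median of -0.22. Of all genes 16.2% were called lower and 16.8% higher, so the higher count was no larger than the background. The hyaluronan-degrading Cemip was at 225, 135, 211 and 170 in control and 60.2, 37.5, 51.0 and 29.8 in knockdown, all below the controls (-1.67, SE 0.18, adjusted p 3.76e-05), and Ogn, osteoglycin, fell by 1.31 (adjusted p 0.00014). Collagens were also among the rises, Col15a1 by 1.4 (adjusted p 4.42e-05) and Col6a3 by 0.57 (adjusted p 0.000464), and the major fibril chain Col1a1 was at 113064 in control and 113863 in knockdown (0.01, adjusted p 0.947). The number of matrix genes called lower was 15 without shRNA2 replicate 1, and 19 with shRNA1 alone against 10 with shRNA2 alone. Of all genes, 22.2% were called lower by shRNA1 and 19.4% by shRNA2. Basement membrane genes held 5 higher and 2 lower of 17, against 16.8% and 16.2% of all genes, so the lower count was no larger than the background, and between 2 and 8 higher when 1 library was left out, with 8 without the library labelled shRNA1 replicate 2.

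Chemokines and inflammatory genes were lower in 14 and higher in 3 of 25 cases (median -0.33). The medians were -0.36 with shRNA1 and -0.30 with shRNA2, yet 14 of the 25 were higher with shRNA2 than with shRNA1 and 4 lower, against 11.6% and 10.4% of all genes. The shRNAs alone called 16 lower and 2 higher (shRNA1) and 13 and 6 (shRNA2). Of all genes, shRNA1 called 22.2% lower and 21.4% higher, and shRNA2 19.4% and 17.4%. Cxcl5, a neutrophil-attracting chemokine and the largest fall by rank on the shrunken log2 scale, was at 18677, 17539, 18809 and 16084 in control and 5024, 3832, 7613 and 5025 in knockdown (-1.71, SE 0.18, adjusted p 0.00017; chr5:90759360-90761624, plus strand). In mean normalized reads its fall was 3.31-fold, below the 4.35-fold of Fgf23, a phosphate-regulating hormone, and the 4.15-fold of Cemip. Ccl2, the monocyte-attracting chemokine, was at 6794, 6620, 7436 and 6179 against 2344, 2410, 3784 and 2885 (-1.22, SE 0.14, adjusted p 0.000192). Both fell below the controls in every knockdown library, Ccl2 less with shRNA2 (by 0.46, adjusted p 0.0117). Vcam1, a leukocyte adhesion molecule, fell by 1.33 (adjusted p 0.0113), whereas Lif, a cytokine of the interleukin-6 family, rose by 0.96 (adjusted p 0.00146). The largest falls by rank also held Sorbs2, a cytoskeletal adaptor, at 210, 192, 258 and 193 against 60.2, 21.6, 74.4 and 65.9 (-1.67, SE 0.24, adjusted p 0.000489), and Slit2, a guidance ligand (-1.39, adjusted p 0.000194).

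The shRNAs parted most clearly over interferon-stimulated genes, which cells switch on after sensing viral nucleic acid or interferon. All 40 members differed between the shRNAs in the same direction, higher with shRNA2 than with shRNA1, where 11.6% of all genes did so and 22% of all genes differed in either direction. With shRNA1 39 of 40 were called lower than control (median -1.81), with shRNA2 18 were lower and 1 higher (median -0.28), where 22.2% and 19.4% of all genes were called lower by the respective shRNA, and pooled 9 were lower, against 16.2% of all genes. That pooled count ranged from 3 to 23 when 1 library was left out, with 5 without the library labelled shRNA1 replicate 2, 4 without shRNA1 replicate 1 and 23 without shRNA2 replicate 1; it was 3, 4, 4 and 5 without control replicates 2, 1, 3 and 4. Promoters are shown for 4 members, because all carry the response element that interferon-activated factors are known to bind, read here as GAAA, any 2 bases and GAAA. The lines give the bases before the start of each gene, from RefSeq on GRCm38.p6, 5′ to 3′ on the strand of the gene, in lower case with the matches on either strand in capitals, a match on the opposite strand reading TTTC, any 2 bases and TTTC.
Ifit3 (chr19:34583329-34583528, plus strand): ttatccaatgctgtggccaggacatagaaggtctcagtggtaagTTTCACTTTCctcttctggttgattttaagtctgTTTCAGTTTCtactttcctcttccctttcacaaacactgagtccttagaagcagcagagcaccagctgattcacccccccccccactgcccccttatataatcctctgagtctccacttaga
Ifit1 (chr19:34640739-34640888, plus strand): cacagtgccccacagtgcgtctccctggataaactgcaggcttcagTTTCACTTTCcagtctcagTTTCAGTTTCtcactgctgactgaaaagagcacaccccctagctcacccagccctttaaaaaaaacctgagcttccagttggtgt
Isg15 (chr4:156200819-156200968, minus strand): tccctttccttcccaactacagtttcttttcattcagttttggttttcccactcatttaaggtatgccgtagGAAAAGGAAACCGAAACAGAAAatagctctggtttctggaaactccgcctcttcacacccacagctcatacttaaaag
Oas3 (chr5:120777660-120777809, minus strand): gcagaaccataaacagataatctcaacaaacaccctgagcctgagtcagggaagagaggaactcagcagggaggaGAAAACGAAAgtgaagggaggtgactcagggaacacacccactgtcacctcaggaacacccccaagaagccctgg

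In the 300-base promoter windows (250 bases before the start and 50 after), which RefSeq gave for 9958 of the genes tested, the motif was found on either strand in 370 (3.72%). It stood in 19 of the 28 interferon-stimulated genes that had a window (67.9%), in 7.63% of genes higher with shRNA2 than with shRNA1, in 3.91% of genes lower with shRNA2, in 4.56% of genes called lower in the pooled comparison and in 2.49% of those called higher. Overlapping matches were counted once per promoter. A pair of AGGTCA copies with 1 base between them, the direct repeat bound by Pparg with its partner RXR, was searched on both strands and stood in 4 of the 9958 windows (0.0402%) and in none of those of the 5 lipid lists. A match is a description of the letters and not a bound site.

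The 4 genes whose promoters are shown had the following levels. Ifit3, an RNA-binding antiviral protein, was at 8467, 8454, 6906 and 6898 normalized reads in control, 553 and 485 with shRNA1 and 7021 and 4478 with shRNA2. Both shRNA1 libraries lay far below the controls, while 1 shRNA2 library lay below them and the other inside their range (shRNA1 -3.74, SE 0.19, adjusted p 7.08e-06; shRNA2 -0.43, SE 0.19, adjusted p 0.123). Its neighbour Ifit1, which binds foreign RNA ends, was at 5418, 5236, 4773 and 4429, then 510 and 449, then 4184 and 2933 (shRNA2 minus shRNA1 2.75, adjusted p 9.24e-06). Isg15, a ubiquitin-like modifier, was at 3641, 4024, 3134 and 3255, then 562 and 784, then 3365 and 2416 (shRNA2 minus shRNA1 2.01, adjusted p 0.000807). Oas3, which makes the activator of RNase L, was at 270, 306, 309 and 328, then 29.6 and 54.5, then 181 and 162, so that here both shRNAs were below all controls (shRNA1 -2.32, adjusted p 2.39e-09; shRNA2 -0.71, adjusted p 0.00128). Zbp1, a nucleic acid sensor, was at 656, 707, 490 and 645, then 76.6 and 97.7, then 404 and 315, lower with shRNA1 than with shRNA2 (shRNA2 minus shRNA1 1.77, adjusted p 1.85e-06). Of the genes named, Ifit3 shares 51.2% of its 50-base words with Ifit3b and Oas1a shares 57.6% with Oas1g, so their reads are uncertain between copies.

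Antigen presentation by MHC class I, which interferon also raises, was split in the same way: 17 of 18 genes were called lower with shRNA1 (median -0.73), 2 with shRNA2 (median -0.03), and 16 were higher with shRNA2 than with shRNA1. Of all genes, 22.2% were called lower by shRNA1 and 19.4% by shRNA2. B2m, the light chain of all class I molecules, was at 45512, 46940, 41380 and 45936 in control, 27160 and 27144 with shRNA1 and 50614 and 43901 with shRNA2, where the shRNA2 libraries stood around the controls (shRNA2 0.07, SE 0.07, adjusted p 0.48). Outside these lists the largest such split was that of Apod, a lipocalin, at 1066, 863, 610 and 812 in control, 88.8 and 60.2 with shRNA1 and 1232 and 699 with shRNA2 (shRNA2 minus shRNA1 3.22, SE 0.32, adjusted p 0.000851), followed by Pi15, a secreted protease inhibitor family member, at 2.98 (adjusted p 0.00698). Lower with shRNA2 by the same rule were Acsbg1 (-1.37), an acyl-CoA synthetase, Etv4 (-1.29), an ETS factor, Cit (-1.28) and Knstrn (-1.20), both of dividing cells, and Prl2c3 (-1.21), a prolactin relative that shares 60% of its words with Prl2c2. Their adjusted p-values ran from 2.24e-05 to 0.0264, and that of Prl2c3 passed 0.05 without either shRNA1 library or without shRNA2 replicate 1 (up to 0.149). In all, 2916 genes differed between the shRNAs (1541 higher and 1375 lower with shRNA2), 1479 without the library labelled shRNA1 replicate 2 and 1693 without shRNA2 replicate 1.

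**Figure D3:**
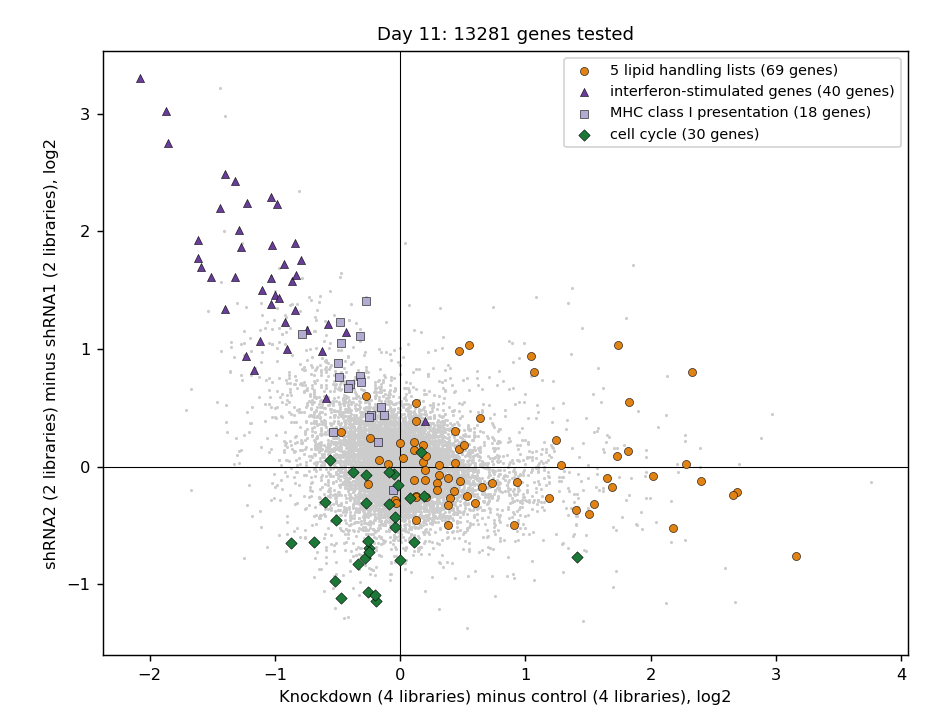
Each point is 1 of 13281 genes at day 11, with the log2 difference of knockdown minus control on the horizontal axis and of shRNA2 minus shRNA1 on the vertical axis; coloured points are members of the lists named. The 40 interferon-stimulated genes all lay above 0 on the vertical axis, led by Ifit3 at 3.30, and Knstrn, which is in none of the lists drawn, lay at -1.20.

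**Figure D4:**
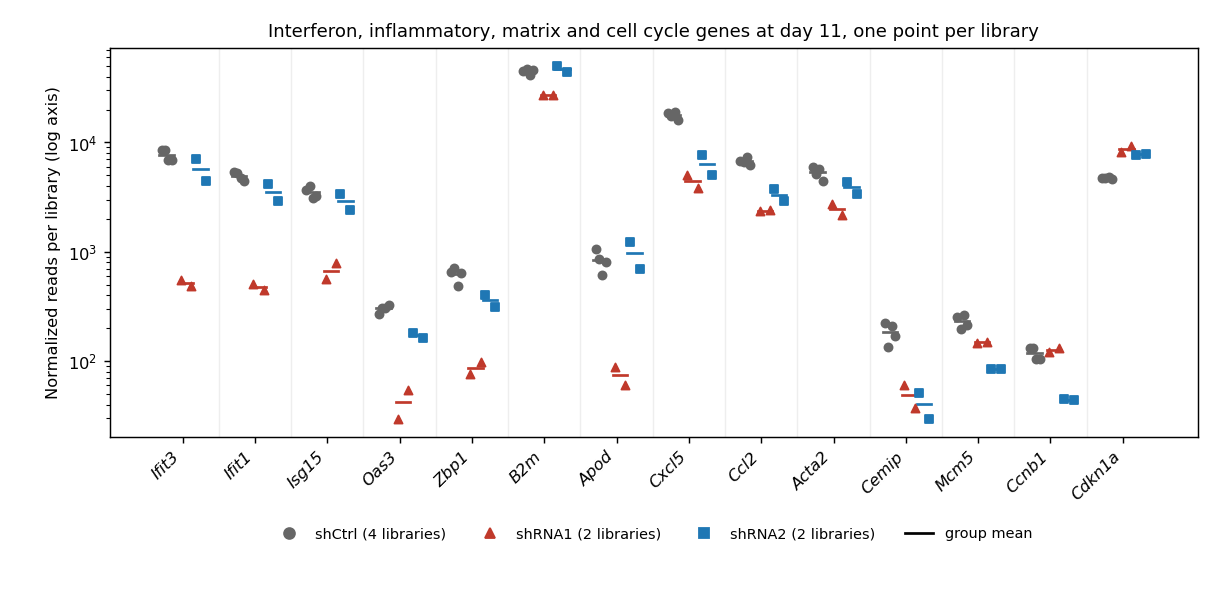
Normalized reads (log axis) of interferon, inflammatory, matrix and cell cycle genes in the 8 libraries, drawn as in the plot of adipocyte genes. For Ifit3, Ifit1 and Isg15 the shRNA1 libraries lay at 449 to 784 and no other library below 2416, whereas for Ccnb1 the shRNA2 libraries lay lowest, at 43.6 and 44.7.

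Cell cycle genes differed between the shRNAs the other way. With shRNA2 21 of 30 were called lower than control and 1 higher (median -0.47), with shRNA1 6 lower and 4 higher (median 0.08), and 19 were lower with shRNA2 than with shRNA1, against 10.4% of all genes. Of all genes, 19.4% were called lower by shRNA2 and 22.2% by shRNA1, so the shRNA1 count was near the background. Pooled, 7 were called lower and 1 higher, where 16.2% of all genes were called lower and 16.8% higher. Ccnb1, the mitotic cyclin, was at 133, 132, 105 and 105 in control, 122 and 131 with shRNA1 and 44.7 and 43.6 with shRNA2, so that only shRNA2 left the control range (shRNA2 minus shRNA1 -1.12, SE 0.15, adjusted p 6.53e-05); it shares 18.9% of its 50-base words with the pseudogene Ccnb1-ps. Mcm5, a subunit of the replicative helicase, was at 253, 196, 264 and 216, then 147 and 151, then 85.1 and 85.0, below the controls with both shRNAs and lower still with shRNA2 (pooled -0.87, SE 0.17, adjusted p 0.00278). The exception was Ccne2, a cyclin of S phase entry, which rose by 1.41 (adjusted p 0.000639). Of 17 inhibitors and D cyclins 6 were called higher and 6 lower: Cdkn1a, the p21 inhibitor, went from 4696, 4780, 4823 and 4648 to 8122, 9192, 7711 and 7914 (0.77, SE 0.06, adjusted p 3.19e-06), Rb1 rose by 0.84 (adjusted p 1.4e-05), and Ccnd1, cyclin D1, fell by 1.22 (SE 0.11, adjusted p 3.1e-05).

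The knockdown difference at day 11 was set against that at day 7, the last day on insulin. Of 13439 genes tested over both days, 1394 (10.4%) had effects that differed, 547 with a more positive (4.07%) and 847 with a more negative value (6.30%) at day 11, and 6328 of 13299 genes (47.6%) were called at day 7 itself. The count of differing effects fell to 927 without day 11 control replicate 3. The lipid and adipokine rises mostly did not differ by this test: of the 69 genes of the 5 lipid lists, 5 had a more positive and 8 a more negative effect at day 11, and of 14 adipokines 1 had a more positive one. Hilpda, the lipase inhibitor, had a larger difference at day 11, at 1709 ± 234 in control and 2430 ± 106 in knockdown at day 7 and 719 ± 101 and 3565 ± 957 at day 11 (SD, n = 4), a change in the difference of 1.69 (adjusted p 0.000183). Lpl went the other way, since its control level rose from 21081 ± 966 to 43839 ± 2991 while knockdown stood at 67432 ± 17634 and 67544 ± 10354 (-1.0, adjusted p 0.00556). Respiratory chain effects were smaller at day 11 in 21 of 24 cases, with medians of 0.65 at day 7 and 0.29 at day 11. Cycs fell from a difference of 1.53 to 0.50 (adjusted p 5.04e-05), its knockdown level going from 4525 ± 715 to 1863 ± 94.1 and its control level from 1498 ± 140 to 1303 ± 99.1.

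Cell cycle genes had a median difference of 0.50 at day 7 and -0.25 at day 11, with 11 of 30 effects more negative at day 11 and none more positive. Mcm5 was at 756 ± 67.1 in control and 1007 ± 83.9 in knockdown at day 7, and at 232 ± 31.6 and 117 ± 37.0 at day 11 (-1.26, adjusted p 0.000601). For Cdkn1a the control level fell from 8309 ± 465 to 4737 ± 79.0, and the knockdown level from 9210 ± 304 to 8235 ± 660 (0.62, adjusted p 5.04e-05). Clock genes went both ways, 4 of 18 more positive and 3 more negative, with Bhlhe41 at 1386 ± 201 and 1959 ± 58.6 at day 7 and 809 ± 118 and 3062 ± 229 at day 11 (1.35, adjusted p 7.57e-06). By rank the largest gains were those of Kctd11, an adaptor of ubiquitin ligases (1.87, adjusted p 5.04e-05), Depp1, an autophagy regulator induced on fasting (1.87, adjusted p 0.000318), H2ac6, a histone (1.80, adjusted p 6.56e-05) that shares 11.3% of its words with Hist1h2ag, and Aldh1a7, an aldehyde dehydrogenase (1.62, adjusted p 2.01e-05). Sorbs2 was at 5.19 ± 1.45 in control and 2.72 ± 2.27 in knockdown at day 7 and at 213 ± 30.6 and 55.5 ± 23.4 at day 11, so that its late rise in control was smaller in knockdown (-1.51, adjusted p 0.00156).

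**Figure D5:**
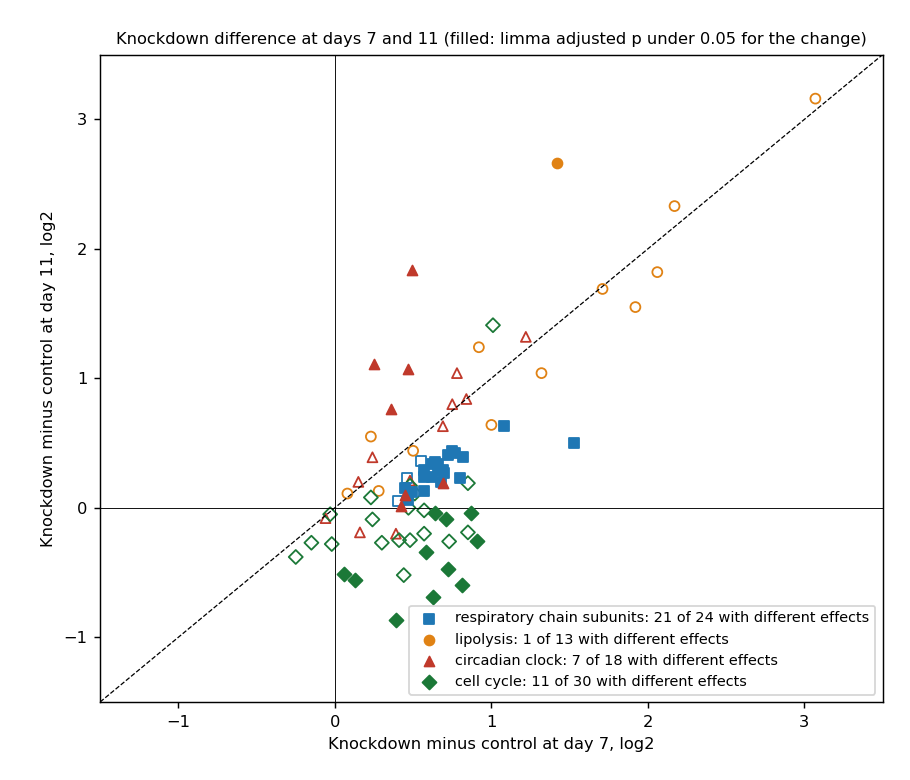
Knockdown minus control (log2) at day 7 (horizontal) and day 11 (vertical) for 4 lists, each day against its own 4 controls; filled symbols mark effects that differed between the days and the dashed line marks equal effects. Of the respiratory chain subunits 21 of 24 are filled and lie below the line, while Bhlhe41 is the clock gene farthest above it.

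Markers of other cell types differed by list, and their part in the results was not tested. Of all genes 16.8% were called higher and 16.2% lower, and the counts below rest on only 2 to 5 tested members a list. Of the leukocyte markers, Ptprc, Fcgr3 and Cd79a were at or under 3 reads in all 8 libraries, and 1 of 5 tested was called higher (Cd68, 0.86, adjusted p 0.0284, a call ended without control replicate 1 or 3 or shRNA1 replicate 1, adjusted p up to 0.0772); the summed level was 757 to 869 normalized reads in control and 977 to 1147 in knockdown. Endothelial markers summed to 83.6 to 102 and 47.8 to 77.6, with Cdh5 and Kdr at or under 3 reads, and Vwf, von Willebrand factor, called lower (1 of 2 tested, -0.51, adjusted p 0.011). Muscle markers summed to 1354 to 2073 and 2950 to 4123, with no overlap between the groups and 2 of 3 tested called higher and none lower, Smtn by 1.08 and Des by 0.77, and Acta1, Ckm and Tnnt1 at or under 3 reads. Bone and cartilage markers summed to 18642 to 21710 and 8948 to 13066, with 2 of 5 called higher and 1 lower: Alpl, alkaline phosphatase, rose by 2.03 (adjusted p 3.18e-06) and Spp1, osteopontin, fell by 1.06 (adjusted p 0.00371), while Acan and Bglap were at or under 3 reads. Epithelial markers summed to 64.1 to 92.7 and 81.8 to 232, with Epcam and Krt14 at or under 3 reads and with 3 past the filter on low values: Krt18 was higher by 1.39 (adjusted p 0.000169) and Krt7 lower by 0.59 (adjusted p 0.00405). Krt19 passed that filter only through the knockdown libraries, so its values are given with no test: 0.813, 1.87, 3.8 and 2.79 normalized reads in control, 16.3 and 14.8 with shRNA1 and 7.44 and 5.31 with shRNA2.

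Some list members were too low to be tested, and 3 of those whose groups did not overlap are given here. They were chosen after their values were seen and no test was made of them; other low members also had groups without overlap, among them Adcy5 (higher) and Tek (lower), and others did not. Ehhadh, a peroxisomal oxidation enzyme, was at 1.63, 1.87, 0 and 2.79 normalized reads in control and 16.3, 7.95, 8.51 and 18.1 in knockdown, at least 4.67-fold higher in the mean against a floor of 3 reads per library. Gpx3, a secreted peroxidase of adipocytes, was at 0.813 in 1 control and 0 in the other 3, and at 11.2, 5.68, 4.25 and 4.25 in knockdown, at least 2.34-fold higher on the same floor. Krt8, the keratin that pairs with Krt18, was at 0, 2.8, 3.8 and 0 in control, 87.8 and 67 with shRNA1 and 10.6 and 5.31 with shRNA2. The controls were the deeper libraries, so 1 read is worth less there on the scale of normalized reads.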

How the data were processed

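RNA libraries of 3T3-L1 cells were made with a TruSeq kit, per the labels' protocols. The submitters' processing notes name TopHat2 2.1.0, Bowtie2 2.2.6, SAMtools 1.3.1 and HTSeq 0.6.1; the genome build, the annotation and the use of strand are not given in the sources used here. The deposited table holds log2 values of 20560 genes in 32 libraries, which have the form of a regularized log; how the authors normalized them is not given in the sources used here. The form was tested on the values: solving it for read counts gave back all 32 deposited values within 0.01 for 19889 genes (96.7%) and for 13269 of the 13281 tested. Normalized reads are these rebuilt reads after scaling each library by its size factor. They describe levels and depth, and the tests used the deposited log2 values.

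Groups came from the sample titles. Genes with a linear value of at least 10 in 4 or more libraries were tested with limma 3.58.1 in R 4.3.3 (trended, robust, Benjamini-Hochberg over all genes tested, called at an adjusted p under 0.05). The knockdown fit set 4 libraries against 4. One fit with the shRNAs as separate groups gave the values of each shRNA and their difference, and a fit over days 7 and 11 gave the change of the effect. Zbtb9 was also tested by an exact permutation test over samples. The code was checked on simulated data. Lists with their counts and medians stand in for set tests. The genes named were Zbtb9; anchor genes set for each of 33 lists (5 of other cell types) and the 3 largest called rises and falls per list; the 12 largest rises and falls among called genes with no overlap of libraries, and the same sign in both shRNAs, whose higher arm averaged a linear value of 50 or more; and the 5 largest in each direction between the shRNAs and between the days. Predicted genes were left out of the rankings, and a near-identical copy may be named beside its gene. Some genes that the rule names are not reported here. Members and lists were chosen with earlier results of these data known. Positions and shared 50-base words come from GENCODE M21 (GRCm38) and promoters from RefSeq (GRCm38.p6).

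Alternatives covered the filter, pseudocount, scaling, variance model, rebuilt reads, pooled fits, the replicate block and each library left out. No library was left out of the results given first.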

Additional observations from a re-analysis of the deposited data

Results flagged for a closer look

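The effect of the knockdown differed between the shRNAs in 2916 genes at day 11, 1541 higher and 1375 lower with shRNA2 (limma, adjusted p under 0.05). The differences below are shRNA2 minus shRNA1 on the log2 scale, and each passed the test of the difference. Interferon-stimulated genes were higher with shRNA2: Ifit3 by 3.30, Ifit3b by 3.02, Ifit1 by 2.75, Isg15 by 2.01, Zbp1 by 1.77 and Oas3 by 1.61, and B2m of antigen presentation by 0.77. Other genes higher with shRNA2 were Apod (3.22), Pi15 (2.98), Acta2 (0.64), Ccl2 (0.46), Selenbp1 (0.45) and Pparg (0.21). Lower with shRNA2 were Acsbg1 (-1.37), Etv4 (-1.29), Cit (-1.28), Prl2c3 (-1.21), Knstrn (-1.20), Ccnb1 (-1.12), Hcar2 (-0.76), Mcm5 (-0.65), Slc2a1 (-0.59), Klf15 (-0.47), Lpl (-0.31) and Nr1d1 (-0.21). Zbtb9 itself was lower in both shRNA2 libraries than in either shRNA1 library, and the part of the depth of knockdown in these differences was not tested.

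The effect also differed between day 11 and day 7 in 1394 genes, 547 more positive and 847 more negative at day 11. The values that follow are the day 11 difference minus the day 7 difference on the log2 scale, each past the threshold of the same test. More positive at day 11 were Kctd11 (1.87), Depp1 (1.87), H2ac6 (1.80), Hilpda (1.69), Aldh1a7 (1.62), Adrb3 (1.25), Slc2a1 (0.80) and Cdkn1a (0.62). More negative were Krt15 (-2.29), Sorbs2 (-1.51), Rnd2 (-1.51), Mcm5 (-1.26), Ccnb1 (-1.20), Cycs (-1.03), Lpl (-1.0) and Bcat2 (-0.73). B3gnt6 (-2.80) and Krt19 (-1.63) had the same direction and are set apart with no test. At day 11 B3gnt6 was too low to be tested, at 0.907 normalized reads in control and 7.47 in knockdown. Krt19 passed the filter on low values at day 11 only through the knockdown libraries, at 2.32 in control and 11 in knockdown. Krt15, a keratin, was at 70.2 normalized reads in control and 465 in knockdown at day 7, and at 14.9 and 15.5 at day 11. Among 47 genes whose control libraries were checked, none had 1 of the 4 controls far from the other 3.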

How the results depend on the processing

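No named gene had opposite directions between the main fit and an alternative where either of them called it. Of 222 named genes, 129 stayed on their side of the threshold under all alternatives. A change of sign where neither fit called the gene was not counted. The balance of the counts did turn: genes changed by knockdown were 2286 higher and 2083 lower with median centring, 1978 and 2478 with libraries rescaled to equal totals, and 1974 and 2515 with voom on rebuilt reads. With a replicate block the count of genes changed by knockdown was 1652 (1019 higher, 633 lower) in place of 4382, and that of effects that differed between the days was 143 (78 more positive, 65 more negative) in place of 1394. Same-numbered libraries correlated by 0.00 to 0.22 in their deviations, and the others by -0.22 to 0.14. In a group of 2 libraries the deviations mirror each other, so these values cannot decide whether the numbers are pairs. The numbers were not taken as pairs in the results given first. Control replicates 3 and 4 share no number with a knockdown library at day 11, so 6 libraries inform the knockdown contrast with the block. With the shRNAs as separate groups the counts were 6129 for knockdown and 2981 for the days. Leaving out 1 library gave 3200 to 4668 genes for knockdown, 4148 to 5891 for shRNA1, 3314 to 5180 for shRNA2, 1479 to 2928 between the shRNAs, 927 to 1586 between the days, and a Zbtb9 difference of -0.42 to -0.20. The cause of these changes was not tested. Of 180 named genes called in knockdown, 148 stayed called in every fit that left out 1 library and tested them. Both counts include Krt19, which was tested in 4 of the 8 fits. Krt19 passed the filter on low values only through the knockdown libraries, so its call is not put forward as a result. The block ended the call of 66 of the 180 and of 5 of the 10 genes named for the change between days. Zbtb9, at 2 to 22 reads a library, is limited by counting noise and by the exons it shares with Ggnbp1, and low genes in general by the shrinkage of the deposited values.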
